A study of Mus musculus with 6 samples.

Results

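Chemokine ligands were followed in RNA-seq libraries of mesenchymal cells grown from mouse small intestine, 3 prepared from E14.5 embryos (embryonic day 14.5) and 3 prepared from adults. The members are the 39 genes, of 23329 with a row in the count tables, whose symbol begins with Ccl, Cxcl, Cx3cl or Xcl followed by a number and at most 1 letter. Every culture came from C57 mice. In both groups the epithelium was shaken off after EDTA treatment and the rest was digested with collagenase and dispase. The cells were then grown at first in serum with the ROCK inhibitor Y27632, and RNA was taken at passage 2 to 3. Adult gut had been opened and its villi scraped away, embryonic gut had been cut into pieces, and no sort for a cell type is described. Whether replicate cultures had separate animals as their source is not in the labels, so the p-values measure the spread between these cultures, which may be technical. The labels name no treatment or genotype for either group, but all 6 count tables carry the unexplained letters PBS in their names, so a shared treatment or vehicle cannot be told from these sources.

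Chemokines are small secreted proteins that bind to G protein-coupled receptors and guide migrating cells along their gradients. Ligands of the receptor CCR2 draw monocytes out of the blood, which in the adult gut keep the macrophage pool filled, and ligands of CXCR2 draw neutrophils. Homeostatic chemokines such as Cxcl12 are made without inflammation and place lymphocytes, stem cells and vessels in a tissue. Stromal cells can be a source of both kinds.

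Counts assigned to genes ranged between 18850224 in adult replicate 2 and 32672370 in E14.5 replicate 1, so that 3 counts, used here as the limit that a count of 0 allows, were worth 0.0927 to 0.149 CPM, which are counts divided by each library's scaled size. The 12 mesenchymal markers looked up, such as Col1a1, Vim and Acta2, summed to high levels in every library and stood at 59661, 46276 and 53899 CPM in E14.5 replicates 1 to 3 and at 52661, 36803 and 57482 CPM in adult replicates 1 to 3. Libraries also differed in other cell types. Macrophage and leukocyte markers together gave 235, 458 and 2784 CPM in E14.5 cultures, against 203, 25.4 and 52.4 CPM in adult cultures. Of the 19 with a row, 12 had groups that did not overlap, all 12 higher in E14.5, beside 12.1% of all genes tested. That share is over tested genes alone, and 13 of the 19 were tested. The endothelial sums were 130, 42.9 and 109 CPM in E14.5 cultures, against 231, 2539 and 714 CPM in adult cultures. These sums are given again beside ligands that differed in the same direction between the groups. Whether sums and ligands varied together from library to library was not tested. In bulk cultures such as these, fewer cells of a type and less RNA per cell cannot be told apart.

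Of the 39 ligand genes, 29 had at least 1 count in some library and 10 had 0 in all 6. After the filter on low counts 17 were tested and 22 were not. Only Ccl2 and Ccl7 passed the test, a Benjamini-Hochberg adjusted p under 0.05 over all 13478 genes tested with edgeR's quasi-likelihood test, and both were lower in E14.5 cultures. No ligand passed it in the other direction. Across all genes tested, 0.838% were called lower and 0.245% higher in E14.5, beside 2 and 0 of the 17 ligands. At an unadjusted p under 0.05 the ligands gave 3 lower (Ccl2, Ccl7, Cxcl1) and 4 higher (Ccl3, Ccl4, Ccl6, Ccl9), beside 9.26% and 8.64% of all genes tested. DESeq2 called those same 7, where it called 5.46% of all genes lower and 5.13% higher, and limma-voom called the 2 that edgeR called, beside 0.824% of all genes lower and 0.200% higher. Among the 17 tested ligands the groups did not overlap for 3 lower in E14.5 (Ccl2, Ccl7, Cxcl1) and 3 higher (Ccl3, Ccl4, Ccl9), beside 12.0% and 12.1% of all genes tested. Ligands under the filter are not in these counts. The median log2 fold change, E14.5 over adult, was 0.36 over the 17 ligands and 0.01 over all genes tested, with 12 ligands positive and 5 negative.

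**Figure D1:**
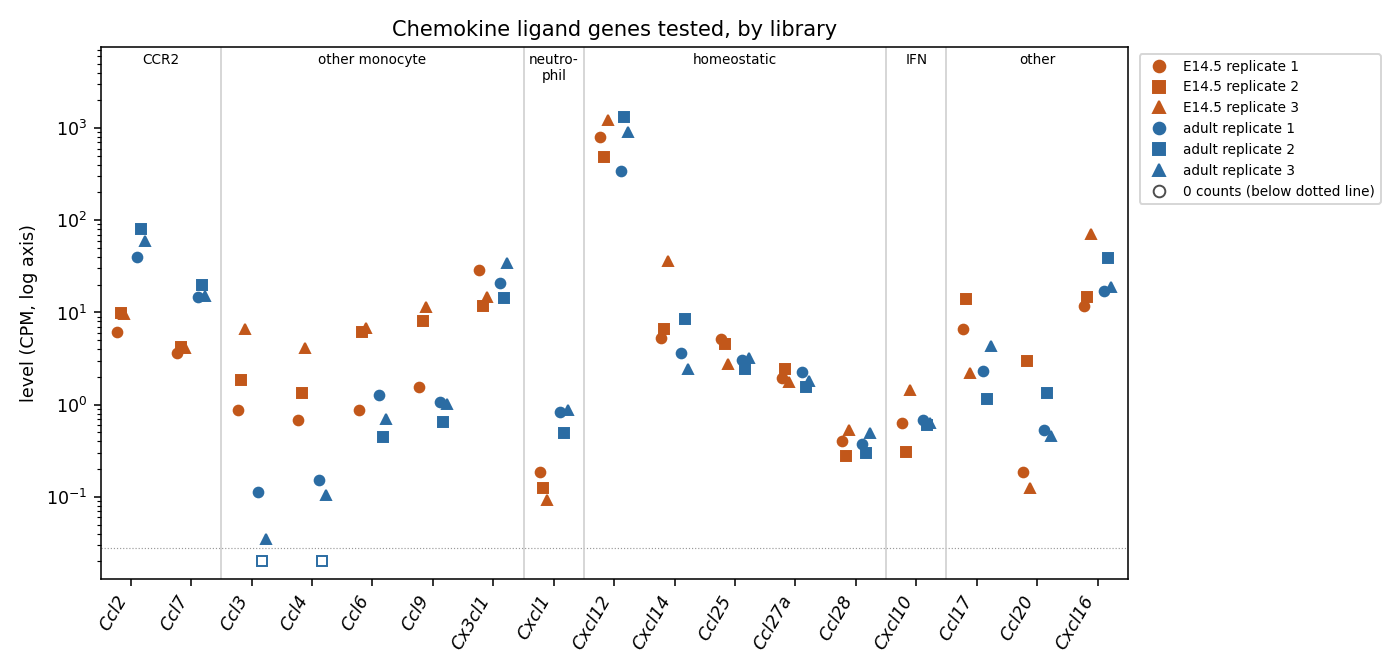
Level of each of the 17 tested ligand genes in each library, in CPM on a log axis, with E14.5 libraries in orange left of adult libraries in blue and the ligand groups separated by vertical lines. Ccl2 and Ccl7 lie below all adult libraries in all 3 E14.5 libraries, Ccl3 and Ccl4 lie above them, and Cxcl12 has the highest CPM in each library with overlapping groups.

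Both CCR2 ligands that could be tested were lower in E14.5 cultures. Ccl2, which encodes monocyte chemoattractant protein and is the main CCR2 ligand, stood at 6.19, 9.77 and 9.52 CPM in E14.5 cultures, against 40.2, 81.2 and 59.0 CPM in adult cultures. The highest E14.5 library was thus far below the lowest adult one. The means were 8.49 ± 2.00 CPM in E14.5 cultures, against 60.2 ± 20.5 CPM in adult (SD, n = 3 each), a log2 fold change of -2.82 (SE 0.32, edgeR adjusted p = 0.0304), or 7.08-fold lower in E14.5. Ccl7, its neighbour and also a monocyte attractant through CCR2, stood at 3.66, 4.25 and 4.11 CPM in E14.5 cultures, against 14.6, 19.9 and 14.9 CPM in adult cultures. Its 3 E14.5 libraries lay close together, and again all of them were below every adult library. The means were 4.01 ± 0.309 CPM in E14.5 cultures, against 16.5 ± 2.98 CPM in adult (SD, n = 3 each), a log2 fold change of -2.04 (SE 0.21, edgeR adjusted p = 0.0222), or 4.11-fold lower. On the mm10 assembly Ccl2 lies at chr11:82035571-82037453 and Ccl7 at chr11:82045712-82047525, both on the plus strand. In the same stretch of chromosome 11 follow Ccl11, Ccl12 and Ccl8.

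Ccl12 and Ccl8, in the same chromosome 11 cluster, did not pass the filter, which asks for enough counts in several libraries. Ccl12, a mouse gene of this cluster that also acts through CCR2, had 6, 12 and 138 counts in E14.5 cultures and 3, 0 and 1 in adult cultures. Most of its counts were in E14.5 replicate 3, the culture with the most macrophage markers, at 4.26 CPM there. Ccl8 had 1 count in 1 E14.5 library and 1 in 1 adult library, and the eosinophil attractant Ccl11, which lies between Ccl7 and Ccl12, likewise. Ccl2, Ccl7, Ccl12 and Ccl8 together summed to 10.0, 14.4 and 17.9 CPM in E14.5 cultures, against 55.0, 101 and 73.9 CPM in adult cultures. The balance of Ccl2 and Ccl7 also differed between the groups. The number of Ccl2 counts per Ccl7 count was 1.69, 2.30 and 2.32 in E14.5 and 2.75, 4.08 and 3.96 in adult cultures, without overlap, at 2.10 ± 0.355 in E14.5 and 3.60 ± 0.732 in adult cultures (SD, n = 3 each), which is a description without a test.

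The direction of both genes held whichever library was left out, but the call did not. The log2 fold change of Ccl2 lay between -3.05 and -2.25 over 17 alternatives and that of Ccl7 between -2.12 and -1.87, each past the threshold in 10 of them, with adjusted p between 1.65e-14 and 0.381 for Ccl2 and between 1.51e-15 and 0.483 for Ccl7. For Ccl2 the edgeR adjusted p became 0.102 when E14.5 replicate 1 was dropped, 0.0585 when E14.5 replicate 3 was, 0.0506 when adult replicate 2 was and 0.141 when adult replicate 3 was. For Ccl7 it became 0.0973 when E14.5 replicate 1 was dropped, 0.0646 when adult replicate 1 was, 0.0551 when adult replicate 2 was and 0.137 when adult replicate 3 was. Both calls were also lost with the title prefix, shared by 1 E14.5 and 1 adult library, as a replicate block. The edgeR adjusted p was then 0.0640 for Ccl2 and 0.0938 for Ccl7. Endothelial markers lay in the same direction as these genes, with 8 of 12 lower in E14.5 without overlap, beside 12.0% of all genes tested. That share is over tested genes alone, and 11 of the 12 were tested. None of the 12 was at 0 in all libraries. The list added up to 42.9 to 130 CPM per E14.5 library, against 231 to 2539 CPM per adult library. The lowest adult sum was in adult replicate 1, where Eng made up 202 CPM, Cdh5 0.909 CPM and Pecam1 0.946 CPM. With that library as the only adult one left, the log2 fold change was -2.25 for Ccl2 and -1.87 for Ccl7. Such a fit holds no spread between adult cultures. The part of endothelial cells in the difference was not tested, by that fit or otherwise.

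**Figure D2:**
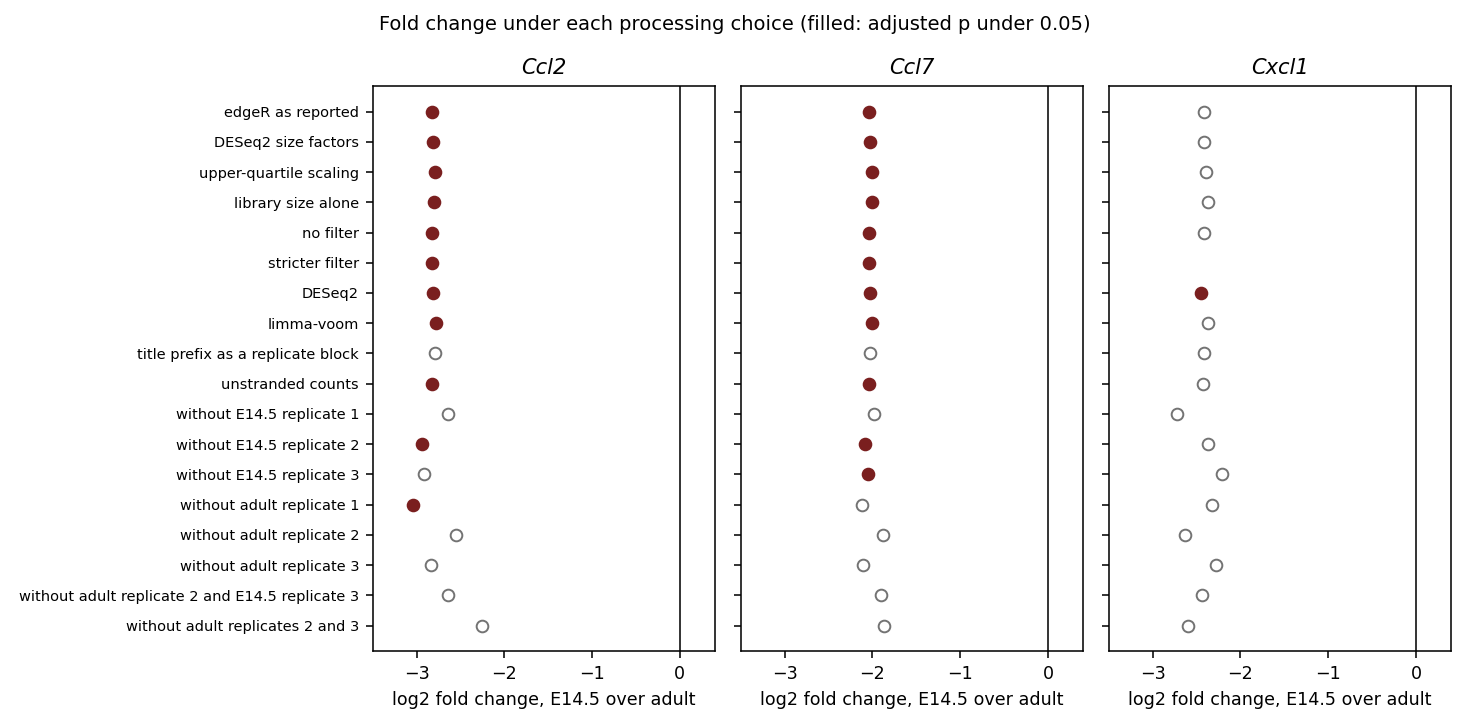
Log2 fold change, E14.5 over adult, of Ccl2, Ccl7 and Cxcl1 as reported (top) and under each alternative, with filled points where the adjusted p is under 0.05 and no point where the gene was not tested. All values lie below 0. For Ccl2 and Ccl7 the points that lose their fill are those of the replicate block and of left-out libraries, and Cxcl1 is filled with DESeq2 alone.

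Of the other monocyte and macrophage attractants, 4 had positive log2 fold changes of 2.49 to 5.77, but none passed the edgeR test. Ccl3 and Ccl4 (macrophage inflammatory proteins, Ccl3 a ligand of CCR1) and Ccl6 and Ccl9 (mouse CCR1 ligands) sit with Ccl5 within chr11:83525778-83664683, another cluster, of 138.9 kb, on the same chromosome. Ccl3 had 28, 60 and 212 counts in E14.5 cultures, or 0.876, 1.86 and 6.55 CPM, and 3, 0 and 1 counts in adult cultures. The groups did not overlap, and the 3 E14.5 libraries spanned 7.48-fold. Its log2 fold change of 5.77 (SE 1.17, edgeR adjusted p = 0.0914) rests on very few adult counts and should be read with them.

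Ccl4 likewise had non-overlapping groups, with 22, 43 and 134 counts in E14.5 and 4, 0 and 3 in adult cultures (log2 fold change 4.44, SE 1.05, edgeR adjusted p = 0.113). Ccl9 stood at 1.56, 8.10 and 11.5 CPM in E14.5 cultures, against 1.06, 0.646 and 1.02 CPM in adult cultures (log2 fold change 2.95, SE 0.75, edgeR adjusted p = 0.126). Its lowest E14.5 library was only a little above the highest adult one. Ccl6 stood at 0.876, 6.14 and 6.80 CPM in E14.5 cultures, against 1.29, 0.447 and 0.703 CPM in adult cultures, so that E14.5 replicate 1 fell inside the adult range (log2 fold change 2.49, SE 0.83, edgeR adjusted p = 0.195). DESeq2 placed all 4 past its threshold, with adjusted p of 4.67e-05 for Ccl3, 0.00111 for Ccl4, 0.00116 for Ccl9 and 0.0273 for Ccl6. Ccl5, in the same cluster and known from T cells, was under the filter with 2 to 7 counts in every library.

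These 4 genes and Ccl12 were highest in E14.5 replicate 3, where macrophage and leukocyte markers were also highest. Over that marker list, E14.5 cultures spanned 235 to 2784 CPM and adult cultures 25.4 to 203 CPM. Its members with the most counts were Lyz2, at 42.5, 139 and 766 CPM in E14.5 cultures, against 98.7, 10.1 and 22.4 CPM in adult cultures, and the complement genes C1qa, C1qb and C1qc, each at 24.2 CPM or more in every E14.5 library and at 17.5 CPM or less in every adult one. The neutrophil gene S100a9 was at 0 in all libraries, the T cell gene Cd3e had 1 count in all, and S100a8 and Cd79a had at most 7 and 3 counts per library. The part of macrophages in the differences of Ccl3, Ccl4, Ccl6 and Ccl9 was not tested.

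**Figure D3:**
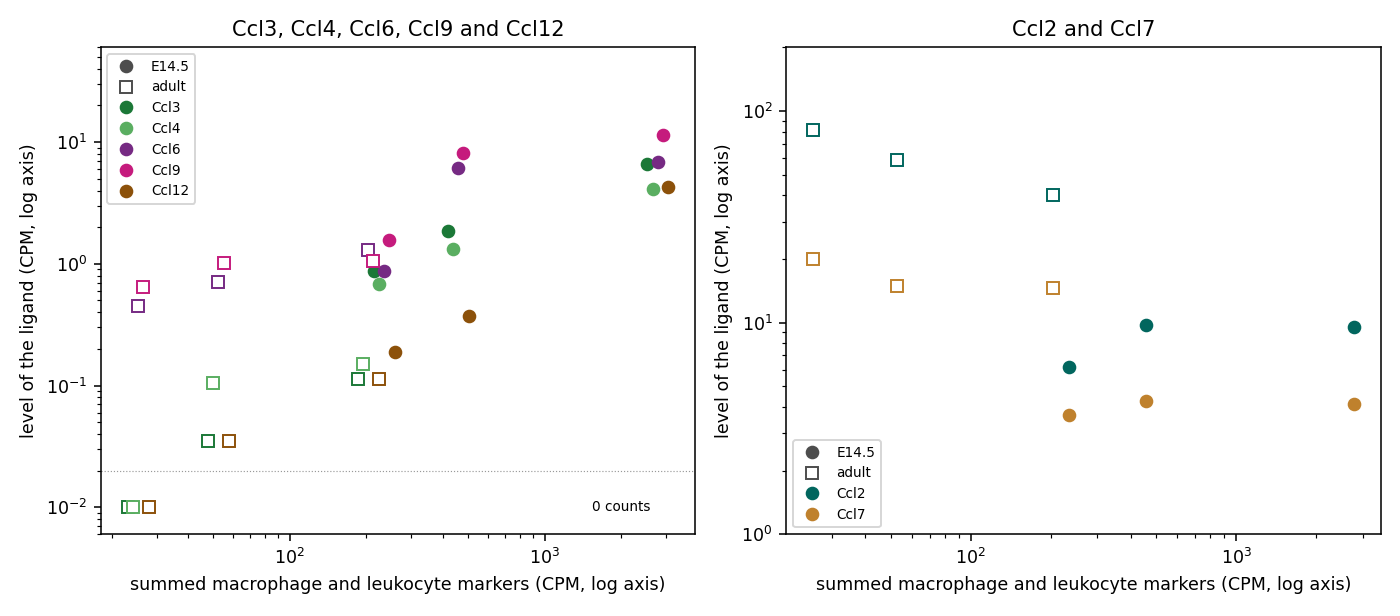
Level of 5 monocyte and macrophage attractants (left) and of Ccl2 and Ccl7 (right) in each library against its summed macrophage and leukocyte markers, both in CPM on log axes, with filled circles for E14.5 and open squares for adult cultures; points of different genes are moved slightly sideways on the left so that they do not hide each other. On the left the library at 2784 CPM of markers holds the highest level of each gene, and on the right all E14.5 points of a gene lie below all its adult points.

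Fractalkine, encoded by Cx3cl1, is made as a membrane-bound protein that holds monocytes through the receptor CX3CR1. It stood at 28.8, 11.6 and 14.6 CPM in E14.5 cultures, against 21.1, 14.3 and 34.4 CPM in adult cultures, with fully mixed groups (log2 fold change -0.34, SE 0.45, edgeR adjusted p = 0.771). Its receptor gene Cx3cr1, a macrophage gene, was at 24.7, 26.9 and 280 CPM in E14.5 cultures, against 4.47, 0.894 and 1.44 CPM in adult cultures, without overlap but with an edgeR adjusted p of 0.113. The other monocyte attractants as a group (Ccl3, Ccl4, Ccl5, Ccl6, Ccl9 and Cx3cl1) summed to 33.0, 29.1 and 43.8 CPM in E14.5 cultures, against 23.9, 15.5 and 36.5 CPM in adult cultures.

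Among the 39 members, the 5 ligands of CXCR2, the neutrophil receptor, were scarce in both groups. They summed to 0.438, 0.683 and 0.865 CPM in E14.5 cultures, against 0.909, 1.14 and 1.05 CPM in adult cultures. They form a cluster of 146.6 kb on chromosome 5, at 90759360 to 90905938, which holds Cxcl5, Cxcl3, Cxcl15, Cxcl1 and Cxcl2. These sums leave out Ppbp, a chemokine gene of this cluster that is not a member. Its values, given below, were higher in every E14.5 library than in any adult one, opposite in direction to these sums. Cxcl1, an early neutrophil attractant, had 6, 4 and 3 counts in E14.5 and 22, 10 and 25 counts in adult cultures. No E14.5 library reached an adult one, at 0.135 ± 0.0484 CPM in E14.5 cultures, against 0.736 ± 0.209 CPM in adult (SD, n = 3 each). The log2 fold change was -2.42 (SE 0.48), which did not pass with edgeR (adjusted p = 0.0844) and passed with DESeq2 (adjusted p = 0.0257).

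Cxcl2, the next gene of the cluster and a close relative with the same receptor, was under the filter, with 4, 15 and 24 counts in E14.5 and 1, 0 and 3 in adult cultures. Cxcl3 had 4, 2 and 1 counts in E14.5 cultures and 0 in every adult culture. Cxcl5 had 0, 1 and 0 counts in E14.5 and 1, 13 and 2 in adult cultures, and Cxcl15 had none anywhere. Cxcl3 and Cxcl15 were at or near what a count of 0 allows, and Cxcl5 passed that limit clearly in adult replicate 2 alone, at 0.646 CPM, so no direction is given for them.

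The upstream sequences of Cxcl1, Cxcl2 and Cxcl3 are shown because these neighbours share the same NF-kB consensus match while only Cxcl1 passed the filter, with that of Ccl9 for comparison. Each is the 120 bases before the start of transcription that RefSeq gives on GRCm38.p6 (mm10), on the strand of the gene, and capitals mark the match.
Cxcl1, chr5:90891125-90891244, plus strand: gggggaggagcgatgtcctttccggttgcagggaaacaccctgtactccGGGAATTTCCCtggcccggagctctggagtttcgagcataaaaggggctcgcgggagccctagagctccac
Cxcl2, chr5:90903779-90903898, plus strand: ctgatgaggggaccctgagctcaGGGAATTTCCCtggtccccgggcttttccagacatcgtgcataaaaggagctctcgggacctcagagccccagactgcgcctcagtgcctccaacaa
Cxcl3, chr5:90785981-90786100, plus strand: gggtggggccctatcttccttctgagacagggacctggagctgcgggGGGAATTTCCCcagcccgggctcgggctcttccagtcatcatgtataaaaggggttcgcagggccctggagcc
Ccl9, chr11:83578637-83578756, minus strand: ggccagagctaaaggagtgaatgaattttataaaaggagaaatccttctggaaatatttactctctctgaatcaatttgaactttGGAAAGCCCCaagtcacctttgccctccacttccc

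In Cxcl1, Cxcl2 and Cxcl3 the capitals are 2 overlapping matches, 1 on each strand, the first beginning 71, 97 and 73 bases before the start. In Ccl9 a single match begins 35 bases before it. For 27 of the 39 ligands 33 RefSeq promoters were found. None was found for Ccl2 and Ccl7, the 2 ligands past the test, so they were not searched. The NF-kB consensus was searched on both strands within the 250 bases before the start. It was in 6 of the 33 (those of the 4 genes above, Ccl20 and Cxcl10) and in 3.90% of 32851 promoters. The AP-1 motif TGANTCA, on both strands, was in 4 of the 33 and in 6.75% of all promoters. TATAAA, on the strand of the gene, was in 9 of the 33 and in 7.59% of all promoters. A match describes these letters alone. The genes of the NF-kB subunits and their feedback regulators gave 0 calls with edgeR among 14 tested, and 0 with limma-voom. At an unadjusted edgeR p under 0.05, 2 were lower, beside 9.26% of all genes tested. DESeq2 called 1 lower, beside 5.46% of all genes tested. The median log2 fold change of the list was -0.15. Of these Rela, which encodes the p65 subunit, stood at 76.5 ± 10.0 CPM in E14.5 cultures, against 81.2 ± 6.49 CPM in adult cultures (mean ± SD, n = 3 per group, edgeR adjusted p = 0.816). Tnfaip3, an NF-kB target that dampens the pathway, stood at 34.0, 135 and 31.4 CPM in E14.5 cultures, against 50.5, 57.0 and 57.7 CPM in adult cultures, and E14.5 replicate 2 was the high one.

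Cxcl12, which through its receptor CXCR4 retains blood cell precursors and guides vessels and nerves, had more counts than any other ligand in every library. It stood at 801, 484 and 1227 CPM in E14.5 cultures, against 339, 1334 and 897 CPM in adult cultures. The groups overlapped fully, at 837 ± 373 CPM in E14.5 cultures, against 857 ± 498 CPM in adult (SD, n = 3 each), and the highest library exceeded the lowest by 2.54-fold in E14.5 and 3.93-fold in adult cultures. The log2 fold change was -0.03 (SE 0.55, edgeR adjusted p = 0.983), and its sign turned with the tool and with the library left out, so the data give no direction and do not exclude a difference of the size of the spread. Cxcl12 held 87.7 ± 3.56% of all ligand counts in E14.5 and 83.2 ± 6.74% in adult cultures (SD, n = 3 each). The lowest share, 75.5%, was that of adult replicate 1 (exact binomial 95% interval 74.7 to 76.3%, counting error only), and the highest, 91.4%, that of E14.5 replicate 1 (91.0 to 91.7%). Without Cxcl12 the ligands summed to 75.7, 90.3 and 178 CPM in E14.5 cultures, against 110, 182 and 144 CPM in adult cultures.

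The 5 tested homeostatic ligands gave 0 calls with edgeR, DESeq2 or limma-voom, and 0 at an unadjusted p under 0.05. Cxcl14, which is made without inflammation in many epithelia and fibroblasts, stood at 5.32, 6.58 and 35.9 CPM in E14.5 cultures, against 3.67, 8.39 and 2.43 CPM in adult cultures. E14.5 replicate 3 alone was high, and the others overlapped (log2 fold change 1.73, SE 0.88, edgeR adjusted p = 0.379, and 0.31 without that library). Ccl25, the small-bowel ligand of CCR9, was at 4.13 ± 1.20 CPM in E14.5 cultures, against 2.90 ± 0.409 CPM in adult cultures (mean ± SD, n = 3 per group, edgeR adjusted p = 0.509). Ccl28, an attractant of antibody-secreting cells, was at 0.404 ± 0.123 CPM in E14.5 cultures, against 0.390 ± 0.0976 CPM in adult cultures (mean ± SD, n = 3 per group, edgeR adjusted p = 0.975). Ccl27a was at 2.05 ± 0.337 CPM in E14.5 cultures, against 1.87 ± 0.372 CPM in adult cultures (mean ± SD, n = 3 per group, edgeR adjusted p = 0.896). All 3 overlapped between the groups. Ccl27a had 81 counts on the opposite strand beside 340 on its own, and it shares sequence with Ccl27b, so its level is uncertain. Cxcl13, the B cell attractant of lymphoid tissue, was under the filter, with 182 counts (9.04 CPM) in adult replicate 2 and 1 to 15 in each other library. Ccl19 and Ccl21a, Ccl21b and Ccl21c, which bring cells to lymph nodes through CCR7, had 0 counts, but the Ccl21 copies are near-identical and reads that fit several places are not counted to genes.

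**Figure D4:**
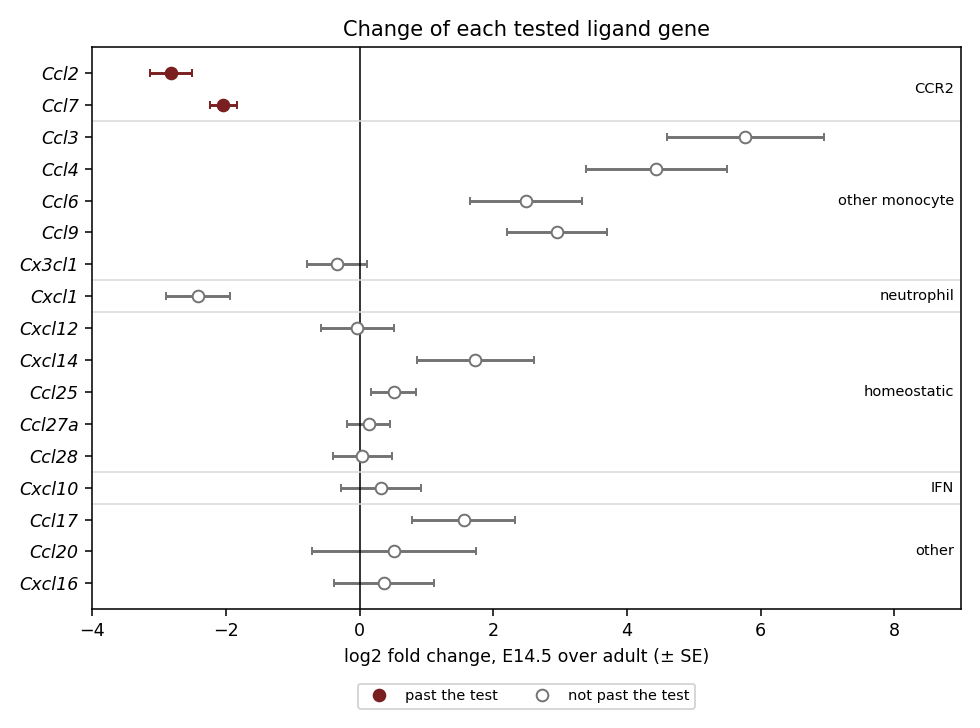
Log2 fold change, E14.5 over adult, of the 17 tested ligand genes with its approximate standard error, filled where the adjusted p is under 0.05, with the ligand groups separated by lines. Only the 2 CCR2 ligands at the top, at -2.82 and -2.04, are filled. Ccl3, Ccl4, Ccl6 and Ccl9 lie between 2.49 and 5.77 with wide errors, and the homeostatic ligands lie between -0.03 and 1.73.

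The 3 tested ligands of lymphocytes and dendritic cells gave 0 calls with edgeR, limma-voom or DESeq2, and 0 at an unadjusted p under 0.05. Cxcl16, which is made as a membrane protein and binds CXCR6 on T cells, stood at 11.7, 14.8 and 70.5 CPM in E14.5 cultures, against 17.2, 39.4 and 18.9 CPM in adult cultures. E14.5 replicate 3 was again high, the rest were mixed (log2 fold change 0.36, SE 0.75, edgeR adjusted p = 0.869), and without that library the log2 fold change was -0.92. Ccl17, a ligand of CCR4, stood at 6.60, 14.1 and 2.19 CPM in E14.5 cultures, against 2.31, 1.14 and 4.29 CPM in adult cultures (log2 fold change 1.56, SE 0.77, edgeR adjusted p = 0.367). Here E14.5 replicate 3 was the lowest of its group, and the groups overlapped. Ccl20, the CCR6 ligand of gut-associated lymphoid tissue, had 96 counts in E14.5 replicate 2 against 6 and 4 in the others of its group, and 14, 27 and 13 in adult cultures. Its log2 fold change was 0.51 (SE 1.23, edgeR adjusted p = 0.891) and -2.27 without that library. Of the interferon-induced ligands of CXCR3, Cxcl10 was at 0.796 ± 0.590 CPM in E14.5 cultures, against 0.637 ± 0.0429 CPM in adult cultures (mean ± SD, n = 3 per group, edgeR adjusted p = 0.855), Cxcl9 had 4 counts in all and Cxcl11 had 0. The interferon signalling and response genes gave 0 calls with edgeR among 19 tested, and 0 with limma-voom. At an unadjusted edgeR p under 0.05, 1 was lower, beside 9.26% of all genes tested. DESeq2 called 1 lower, beside 5.46% of all genes tested. The median log2 fold change of the list was -0.19.

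Among the remaining ligands without a test, Ccl22 and Ccl24 had 1 count each in all libraries together and Cxcl17 had at most 8 in a library. The genes with 0 counts in every library, besides those already given, were Xcl1, Ccl1, Ccl26 and Ccl27b. A count of 0 allows up to 0.0927 to 0.149 CPM per library, for counting error only.

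Per length, the levels of different ligands can be set side by side. In CPM per kilobase of exonic length, Cxcl12 led in both groups, at 102 ± 45.6 in E14.5 and 105 ± 60.9 in adult cultures (SD, n = 3 each, as for the next values). In E14.5 cultures it was followed by Ccl17 at 14.9 ± 11.7, Cxcl16 at 10.7 ± 11.0, Cxcl14 at 8.72 ± 9.47, Ccl2 at 7.46 ± 1.76 and Ccl7 at 5.00 ± 0.386. In adult cultures it was followed by Ccl2 at 52.9 ± 18.0, Ccl7 at 20.6 ± 3.72, Cxcl16 at 8.34 ± 4.09 and Cx3cl1 at 5.92 ± 2.60. Ccl2 thus ranked 5 in E14.5 and 2 in adult cultures, and Ccl7 ranked 6 in E14.5 and 3 in adult cultures. In E14.5 cultures Cxcl12 stood apart from Ccl17, and Ccl2 from Ccl7, by more than the larger SD of the pair, while the other neighbours in that order did not. In adult cultures Ccl2 stood apart from Ccl7 and Ccl7 from Cxcl16 by more than the larger SD, while Cxcl12 and Ccl2, and Cxcl16 and Cx3cl1, did not. This comparison leaves aside that both genes of a pair were measured in the same libraries. Within each adult library Cxcl12 was above Ccl2, at 41.5, 163 and 110 against 35.4, 71.4 and 51.8. Within each E14.5 library Cxcl16 was above Cxcl14, at 3.87, 4.90 and 23.3 against 2.91, 3.60 and 19.7.

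Pf4 and Ppbp are CXC chemokines of platelets and macrophages whose symbols fall outside the rule, and they lie in the chromosome 5 cluster between Cxcl5 and Cxcl3. Ppbp stood at 26.5, 2.30 and 3.65 CPM in E14.5 cultures, and had 1, 0 and 2 counts in adult cultures. Its log2 fold change of 7.95 rests on these few adult counts (edgeR adjusted p = 0.0730, DESeq2 adjusted p = 3.60e-08). Unlike Ccl3 and Ccl4 it was highest in E14.5 replicate 1. Pf4 stood at 1.13, 4.90 and 14.3 CPM in E14.5 and 0.984, 0.0993 and 0.176 CPM in adult cultures, with E14.5 replicate 3 the highest. Its log2 fold change was 3.97 (edgeR adjusted p = 0.165, DESeq2 adjusted p = 0.00340).

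Few receptors of these ligands passed the filter. Of 19 chemokine receptor genes 5 were tested, and only Cxcr6, the receptor of Cxcl16, passed the edgeR test, at 0.532, 0.652 and 0.433 CPM in E14.5 cultures, against 2.65, 2.28 and 3.66 CPM in adult cultures. The groups did not overlap (log2 fold change -2.40, SE 0.38, edgeR adjusted p = 0.0488). DESeq2 called 1 receptor higher and 1 lower, beside 5.13% and 5.46% of all genes tested, and limma-voom called 0. For Ccr1 and Cx3cr1 DESeq2 gave no adjusted p, at log2 fold changes of 5.78 and 5.60. At an unadjusted edgeR p under 0.05, 3 were higher and 1 lower, beside 8.64% and 9.26% of all genes tested. Cxcr6 stayed past the threshold in 3 of 17 alternatives only, which were the stricter filter (adjusted p = 0.0391), DESeq2 (8.10e-06) and the fit without E14.5 replicate 2 (0.0471), and the highest adjusted p was 0.646. Its adjusted p was 0.0502 to 0.0541 under the other scalings, 0.0617 without the filter, 0.0681 with unstranded counts and 0.0532 with limma-voom, and 0.155 and 0.0940 without E14.5 replicates 1 and 3 and 0.123, 0.0988 and 0.240 without adult replicates 1, 2 and 3. Ccr1, a macrophage receptor of Ccl3, Ccl6 and Ccl9, was not called with edgeR or limma-voom. Ccr1 stood at 5.13, 4.28 and 44.6 CPM in E14.5 cultures, against 0.681, 0.149 and 0.141 CPM in adult cultures (edgeR adjusted p = 0.105). Like the ligands Ccl3 and Ccl4, it was highest in E14.5 replicate 3.

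Cxcr4, the signalling receptor of Cxcl12 and named here after its values were seen, was at 2.66, 2.76 and 14.3 CPM in E14.5 cultures, against 4.01, 0.0993 and 1.02 CPM in adult cultures, with overlap (edgeR adjusted p = 0.490). Ccr2, the receptor of Ccl2 and Ccl7, reached at most 0.402 CPM in an E14.5 library and 0.0379 CPM in an adult one and was not tested. Atypical receptors take up chemokines without signalling through G proteins. The Cxcl12 scavenger, listed as Cxcr7 (Ackr3), stood at 30.5, 16.1 and 65.9 CPM in E14.5 cultures, against 69.4, 96.2 and 64.9 CPM in adult cultures, overlapping in a single library (edgeR adjusted p = 0.353). The scavenger of Ccl19, Ccl21 and Ccl25, listed as Ccrl1 (Ackr4), stood at 4.53, 4.90 and 8.06 CPM in E14.5 cultures, against 14.4, 17.1 and 15.5 CPM in adult cultures, without overlap (log2 fold change -1.43, SE 0.27, edgeR adjusted p = 0.0755).

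Genes that switch these ligands on in stroma, or act on the same cells, were read from lists. Of 19 tested receptors and adaptors of inflammatory signals 0 passed the edgeR test, while 17 had a negative log2 fold change, as had 48.5% of all genes tested, and the median was -0.78, against 0.01 for all genes tested. With edgeR p under 0.05 before adjustment, 9 were lower and 0 higher, beside the 9.26% and 8.64% of all genes given above. DESeq2 called 6 lower and 0 higher, beside 5.46% and 5.13% of all genes, and limma-voom called 0. Il1r1, the interleukin 1 receptor and chosen after its values were seen, stood at 27.1, 18.4 and 14.6 CPM in E14.5 cultures, against 88.2, 51.1 and 99.6 CPM in adult cultures, without overlap (log2 fold change -1.99, SE 0.33, edgeR adjusted p = 0.0616). The highest CPM of the list had Il6st, the shared receptor chain of the interleukin 6 family, at 202 ± 22.6 CPM in E14.5 cultures, against 271 ± 34.4 CPM in adult cultures (mean ± SD, n = 3 per group, edgeR adjusted p = 0.206), and Tnfrsf1a, the main TNF receptor, at 98.8 ± 18.2 CPM in E14.5 cultures, against 130 ± 8.23 CPM in adult cultures (mean ± SD, n = 3 per group, edgeR adjusted p = 0.259). In the interferon list the highest CPM had Jak1, a kinase of cytokine receptors, at 212 ± 4.26 CPM in E14.5 cultures, against 250 ± 13.7 CPM in adult cultures (mean ± SD, n = 3 per group, edgeR adjusted p = 0.296), and Ifngr2, an interferon gamma receptor chain, at 178 ± 14.2 CPM in E14.5 cultures, against 151 ± 7.16 CPM in adult cultures (mean ± SD, n = 3 per group, edgeR adjusted p = 0.326).

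Of 12 inflammatory cytokine genes tested, edgeR called only Il34, which encodes a ligand of the macrophage growth receptor CSF1R, and it was lower. DESeq2 called 3 higher and 2 lower in this list, beside 5.13% and 5.46% of all genes tested. The limma-voom calls were 0 higher and 1 lower, beside 0.200% and 0.824%. At an unadjusted edgeR p under 0.05, 3 were higher and 3 lower, beside 8.64% and 9.26%. Il34 stood at 0.156, 0.310 and 0.309 CPM in E14.5 cultures, against 2.23, 2.98 and 2.29 CPM in adult cultures, without overlap (log2 fold change -3.25, SE 0.42, edgeR adjusted p = 0.0361). The call was lost without E14.5 replicates 1 and 3 (adjusted p 0.118 and 0.0626) and without adult replicates 1, 2 and 3 (adjusted p 0.0869, 0.0895 and 0.181), and over the 17 alternatives the adjusted p lay between 6.29e-08 and 0.532. Csf1, the other ligand of that receptor, stood at 611, 1936 and 415 CPM in E14.5 cultures, against 2515, 1876 and 2562 CPM in adult cultures, and E14.5 replicate 2 lay within the adult range (log2 fold change -1.23, edgeR adjusted p = 0.340). Without that library the log2 fold change was -2.18 (edgeR adjusted p = 0.0253). Lif, a cytokine of the interleukin 6 family, was at 44.5 ± 31.9 CPM in E14.5 cultures, against 55.3 ± 22.1 CPM in adult cultures (mean ± SD, n = 3 per group, edgeR adjusted p = 0.842).

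Of 15 tested genes that process or retain chemokines, edgeR called only Mmp12, a macrophage protease that cuts chemokines, and it was higher. DESeq2 called 3 higher and 0 lower, beside 5.13% and 5.46% of all genes tested. The limma-voom calls were 1 higher and 0 lower, beside 0.200% and 0.824%. At an unadjusted edgeR p under 0.05, 4 were higher and 2 lower, beside 8.64% and 9.26%. Mmp12 stood at 9.41, 14.3 and 17.9 CPM in E14.5 cultures, against 1.36, 0.397 and 0.457 CPM in adult cultures, without overlap (log2 fold change 4.21, SE 0.58, edgeR adjusted p = 0.0394). Without E14.5 replicates 1 and 3 the adjusted p was 0.115 and 0.0665, and without adult replicates 2 and 3 it was 0.0899 and 0.190. Over the 17 alternatives it lay between 2.07e-12 and 0.464. Its part from macrophages was not tested, and the macrophage marker sums above lay in the same direction. Mmp14, a membrane protease of mesenchymal cells, was at 800 ± 295 CPM in E14.5 cultures, against 911 ± 298 CPM in adult cultures (mean ± SD, n = 3 per group, edgeR adjusted p = 0.856), and Sdc3, a heparan sulfate carrier, at 523 ± 128 CPM in E14.5 cultures, against 326 ± 15.9 CPM in adult cultures (mean ± SD, n = 3 per group, edgeR adjusted p = 0.141, DESeq2 adjusted p = 0.0206).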

How the data were processed

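RNA-seq was run on 3 E14.5 and 3 adult cultures, as poly(A) stranded libraries read from a single end over 75 bases, per the labels' protocols. The authors deposited 1 table of raw counts per library, from reads aligned with STAR to mm10 per the submitters' processing notes, with the STAR version and the annotation not given in the sources used here. Reverse-strand counts were used, since forward-strand counts made up 1.33 to 1.69% of stranded gene counts. Rows that name no gene held 17.4 to 19.8% of counted reads and were left out. Counts assigned to genes ranged from 18850224 to 32672370 per library. Replicates were numbered in accession order.

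Genes kept by filterByExpr were scaled by TMM and tested with the quasi-likelihood test of edgeR 4.0.16 in R 4.3.3 (robust dispersions, Benjamini-Hochberg over 13478 genes, threshold 0.05). All adjusted p-values are from it unless another tool is named. CPM were computed here on TMM-scaled library sizes. The SE of a log2 fold change is its size over the square root of F, which is approximate. Exonic lengths and positions come from GENCODE M21 on mm10 (38 of 39 ligands matched by symbol), promoters from RefSeq on GRCm38.p6. The steps were run on simulated counts with planted changes and the same dispersion set for every gene. That checks the code alone and not the calls in these libraries.

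The members and gene lists were chosen with earlier results of these data known. Values per library are given for ligands past the test and for tested ligands whose mean reached 10 CPM in either group, and for others where they show which library is high. From each context list came every gene past the test, at most 3 per direction, and the 2 highest in CPM not past it; others are said to have been chosen after their values were seen. Alternatives were other scalings, filters and counting strands, DESeq2 1.42.0, limma-voom in limma 3.58.1, the title prefix as a block, and left-out libraries. No 2 libraries held identical counts.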

Additional observations from a re-analysis of the deposited data

How the results depend on the processing

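Over all genes, edgeR called 146, DESeq2 1427 and limma-voom 138, and over the ligands 2, 7 and 2. Leaving out each library in turn gave 3 to 471 genes and 0 to 2 ligands: 3 genes without E14.5 replicate 1 or adult replicate 3, 38 and 46 without adult replicates 1 and 2, and 471 without E14.5 replicate 2, and 0 ligands without E14.5 replicate 1, adult replicate 2 or adult replicate 3. Leaving out adult replicate 2 with E14.5 replicate 3 gave 36 genes and 0 ligands, and leaving out adult replicates 2 and 3 gave 0 and 0, with 1 adult library left and assumed to vary like the E14.5 ones. The title prefix, whose meaning the labels do not give, as a replicate block gave 2 genes and 0 ligands; same-prefix libraries did not deviate together (correlations -0.14, -0.23 and -0.09) and no library correlated best with its own prefix, so the prefix was not taken as a pairing. The cause of these differences in count was not tested, apart from the fewer libraries. The median ligand log2 fold change stayed positive, at 0.0599 with limma-voom and up to 0.89 without adult replicates 2 and 3. No scaling moved the median of all genes by more than 0.0417. Cxcl1 was not tested under the stricter filter.

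Signs turned for these genes, none of them called with all libraries, and Tnfaip3 was called without E14.5 replicate 2 (adjusted p = 0.0393). With limma-voom the log2 fold change was -0.64 for Ccl20, -0.0034 for Ccl28, 0.0599 for Cxcl12 and -0.0674 for Tnfaip3. With the block it was -0.59 for Ccl20, -0.0724 for Cxcl16, 0.10 for Cxcl12 and -0.0876 for Tnfaip3. Unstranded counts gave -0.0729 for Ccl28. Without adult replicate 2 and E14.5 replicate 3 it was -0.45 for Cxcl16, -0.35 for Ccl28, -0.49 for Cxcl10, 0.0448 for Cxcl12 and 0.0081 for Rela. Without adult replicates 2 and 3 it was -0.15 for Ccl27a and 1.29 for Cxcl12. With single libraries left out the range was -2.27 to 1.14 for Ccl20, -0.19 to 0.25 for Ccl28, -0.41 to 0.43 for Cxcl12, -0.75 to 0.62 for Tnfaip3, -0.92 to 0.84 for Cxcl16, -0.0029 to 0.30 for Ccl27a, -0.52 to 0.0248 for Mmp14, -0.44 to 0.70 for Cxcl10, -0.14 to 0.0201 for Rela, -1.07 to 0.0189 for Lif and -0.84 to 0.0487 for Cx3cl1. The 22 ligands without a test had at most 214 counts over all libraries, and of the 2 with the most, Cxcl13 had 182 of its counts in adult replicate 2 and Ccl12 had 138 in E14.5 replicate 3.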
